A study of Macaca mulatta with 27 samples.

Results

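The genes described here encode the heterogeneous nuclear ribonucleoproteins (hnRNPs), the serine/arginine-rich (SR) splicing factors, the subunits of the SF3A and SF3B complexes, and the protein components of the small nuclear ribonucleoproteins (snRNPs). The members were all symbols of the count tables that start with HNRNP, with SRSF, SF3A, or SF3B followed by a number alone, or with SNRP, except SNRPN. This rule found 53 of the 17967 gene symbols: 22 hnRNP genes, 12 SR protein genes (SRSF1 to SRSF12), 8 SF3A and SF3B genes, 7 genes of the Sm proteins that form a ring around the snRNAs, and 4 genes of proteins particular to the U1 or U2 snRNP. The rule used names and no measured value.

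Introns are removed by the spliceosome, in which U1 and U2 snRNPs recognise the splice sites and the branch point, and in which the SF3A and SF3B complexes are part of the U2 snRNP. SR proteins mostly bind exonic sequences and favour the use of nearby splice sites, whereas many hnRNPs bind pre-mRNA and repress or redirect splice site choice, and also act in mRNA export, stability, and translation. Pluripotent stem cells are known for abundant RNA-processing transcripts, and the balance among these factors is one of the determinants of which exons they include.

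Bulk RNA was sequenced from 1 clonal rhesus embryonic stem cell line, LyonES-tGFP-(S3), before and after its culture in 7 media meant to convert pluripotent stem cells (PSCs) from the primed to the naive state. All groups, the primed cells included, carry a tauGFP transgene driven by the ubiquitous CAG promoter and a lentiviral STAT3-ER T2, a STAT3 that tamoxifen activates. There were 6 libraries of primed cells and 3 libraries of each converted culture, which were TL2i, TL-CDK8i, LCDM (EPS), t2iLGöY, E-NHSM, 4i/L/b, and NHSM-v. TL2i cells received tamoxifen, LIF, and inhibitors of MEK and GSK3β. TL-CDK8i cells, called TL-CDK8/19i in the study's text, received an inhibitor of CDK8 and CDK19 in place of the MEK and GSK3β inhibitors. The remaining 5 media were used without tamoxifen. Primed cells were passaged in clumps and the converted cells as single cells, so medium and passaging cannot be told apart. The labels name 6 primed samples in 2 sets that do not match their protocol entries, and the primed columns carry the letters J and K, so these columns were assigned to the primed group only. No source states whether libraries of a group came from separate cultures, so p-values measure the spread between libraries, which may be technical.

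The libraries held 7111886 to 20760914 counts (median 12201171). Levels are given as CPM, the counts of a gene scaled to a common library size after TMM normalization over all 27 libraries, and 3 counts, taken as the limit of detection, correspond to 0.139 to 0.422 CPM. Between the K and J primed columns, 469 of 12559 genes passed the test (3.73%), among them 3 members, HNRNPA2B1 (K minus J log2 fold change -0.20), HNRNPH1 (-0.27), and SRSF11 (-0.38). Marker genes differed between the cultures, all 7 of which the labels call naive cells. The summed level of 6 pluripotency markers (POU5F1, NANOG, SOX2, LIN28A, DPPA4, and PRDM14) was 2713 to 3076 CPM in primed, 2974 to 3127 CPM in E-NHSM, and 1083 to 1517 CPM in TL-CDK8i cells. It was 102 to 402 CPM in the other 5 groups, in which POU5F1 averaged at most 6.43 CPM against 1185 CPM in primed cells. NANOG was at 0 in every NHSM-v and t2iLGöY library, and PRDM14 was at 0 in every NHSM-v library. Summed neural markers (PAX6, SOX1, DCX, TUBB3, MAP2, and STMN2) were 65.9 to 126 CPM in primed, 99.9 to 117 CPM in E-NHSM, and 195 to 270 CPM in TL-CDK8i cells. They were 506 to 3519 CPM in the other 5 groups, highest in LCDM (EPS). Summed mesenchymal markers (COL1A1, COL1A2, COL3A1, VIM, THY1, and PDGFRB) were 1625 to 3199 CPM in primed cells and ranged from 609.9 to 677 CPM in E-NHSM up to 14490 to 18005 CPM in 4i/L/b. The 4 trophoblast markers (GATA3, KRT7, TFAP2A, and CDX2) summed to 3.66 to 14.6 CPM in primed cells and to at most 226 CPM in any library, with CDX2 at 0 in every primed library and KRT7 at 161 ± 48.0 CPM in TL-CDK8i. Endoderm markers (4 genes) and mesoderm markers (3 genes) summed to at most 61.4 CPM and 34.2 CPM in any library. In bulk RNA, fewer cells of a type and less RNA per cell cannot be told apart, and the part of these markers in the results below was not tested.

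Splicing factor transcripts were lower in most media than in primed cells, and few were higher. A gene was called when its adjusted p in edgeR's quasi-likelihood test was under 0.05, and 52 members could be tested in every comparison. In NHSM-v, 42 members were lower and 2 higher, where 30.6% of all genes tested were lower and 28% higher. The median log2 fold change of the members was -0.68, against -0.02 over all genes tested. In 4i/L/b, 42 were lower and 0 higher (29% and 26.6% of all genes), with a median of -0.60 against 0.01. In TL-CDK8i, 40 were lower and 0 higher (23.8% and 22.3% of all genes), with a median of -0.65 against 0.02. The falls were smaller in the remaining media. In TL2i, 35 members were lower and 0 higher (25.2% and 25.6% of all genes), with a median of -0.38 against 0.07. In t2iLGöY, 33 were lower and 5 higher (27.2% and 27.1% of all genes), with a median of -0.37 against 0.02. In LCDM (EPS), 23 were lower and 8 higher (28.9% and 28.2% of all genes), with a median of -0.17 against 0.03. In E-NHSM, 19 were lower and 2 higher (15.1% and 11.1% of all genes), with a median of -0.15 against 0.02. When the 7 protocols were averaged and set against primed cells, in a fit on all 27 libraries, 44 members were lower and 3 higher (32.9% and 30% of all genes), with a median of -0.41 against 0.02. These comparisons share the 6 primed libraries. Falls were mostly under 2-fold: the members called with a log2 change of at least 1 in either direction numbered 14 in NHSM-v, 9 in TL-CDK8i, 4 in each of 4i/L/b and TL2i, 2 in LCDM (EPS), 1 in t2iLGöY, and 0 in E-NHSM. Of all genes tested, 4560 of 13268 were called at this size in NHSM-v, 2584 of 13359 in TL-CDK8i, 3928 of 13558 in 4i/L/b, and 3336 of 13808 in TL2i. The numbers were 4354 of 13625 in LCDM (EPS), 4298 of 13662 in t2iLGöY, and 1209 of 13304 in E-NHSM. With scaling to library totals alone, in place of TMM factors, the split was 15 lower and 7 higher in E-NHSM and 17 lower and 12 higher in LCDM (EPS), and with upper-quartile factors it was 16 lower and 6 higher in E-NHSM. Library totals moved the median of all genes by 0.120 in TL2i, 0.125 in t2iLGöY, and 0.118 in LCDM (EPS), and, in the comparisons between media given further on, by -0.118 in TL-CDK8i against TL2i, 0.120 in E-NHSM against NHSM-v, and 0.142 in LCDM (EPS) against TL-CDK8i.

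**Figure D1:**
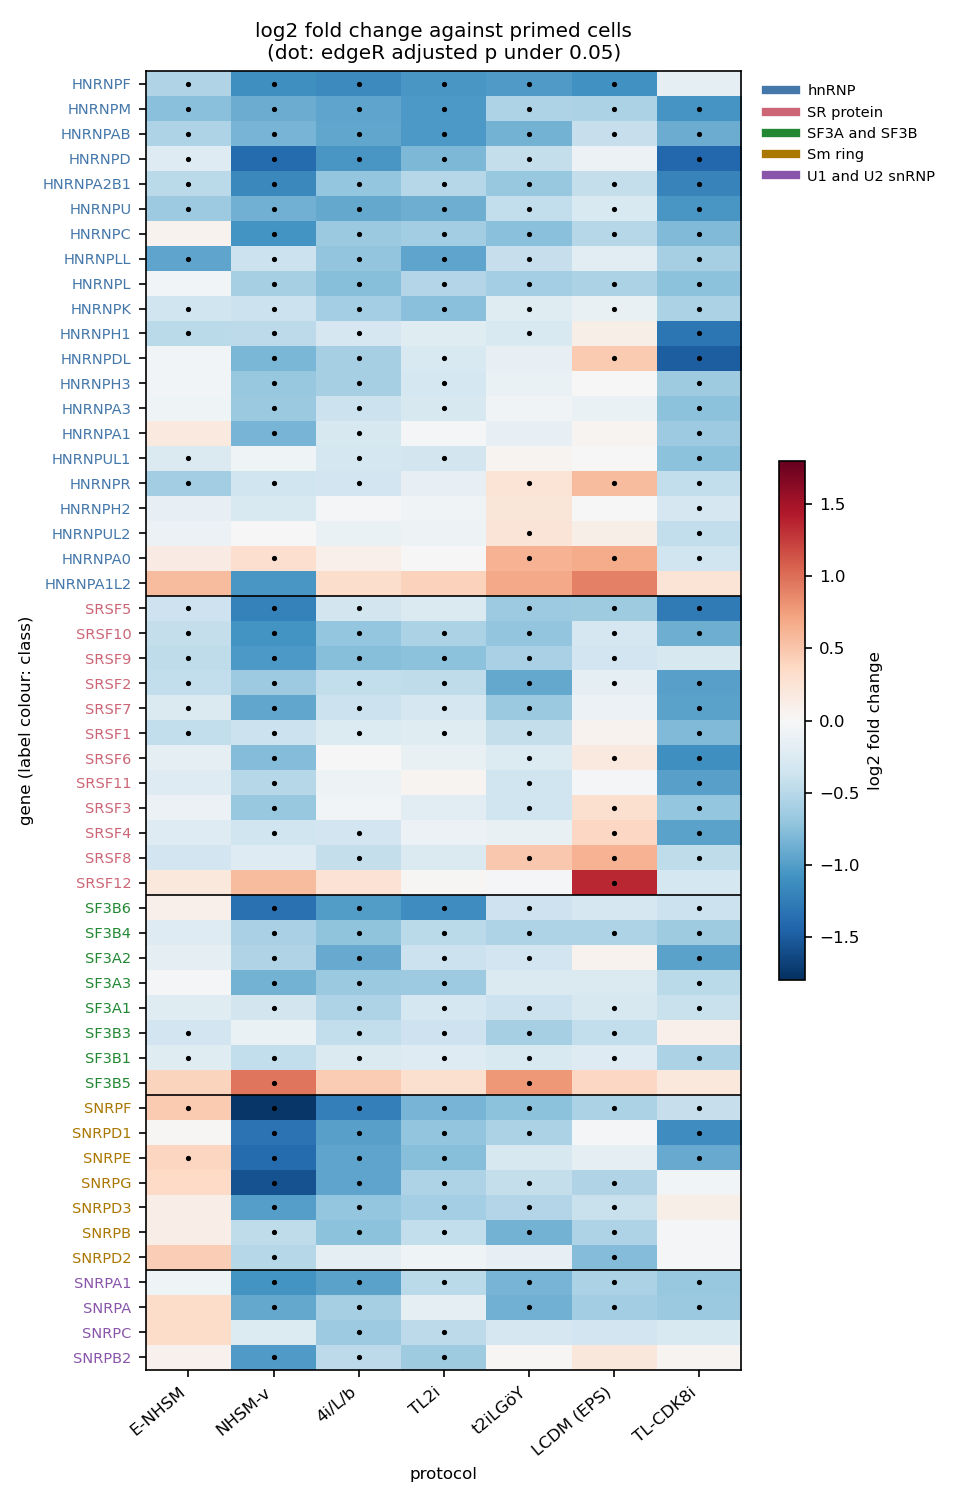
Log2 fold change against primed cells (colour) of the 52 tested members (rows, by class and, within a class, by the average over protocols) in the 7 protocols (columns), with a dot where the edgeR adjusted p was under 0.05. NHSM-v, 4i/L/b, and TL-CDK8i hold 42, 42, and 40 dots on the side of lower levels, whereas E-NHSM and LCDM (EPS) hold 19 and 23.

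The members took a mean of 2.36% ± 0.0856 of a library's counts in primed cells (SD, n = 6). The share was 2.31% ± 0.0338 in LCDM (EPS), 2.05% ± 0.0511 in E-NHSM, 1.97% ± 0.0251 in t2iLGöY, 1.86% ± 0.0393 in TL2i, 1.69% ± 0.0441 in 4i/L/b, 1.43% ± 0.0169 in NHSM-v, and 1.38% ± 0.0410 in TL-CDK8i cells (SD, n = 3 each). Primed libraries ran from 2.25% to 2.45% and overlapped with LCDM (EPS) alone, at 2.27% to 2.33%. The J columns were at 2.45%, 2.42%, and 2.43%, and the K columns at 2.28%, 2.25%, and 2.33%. LCDM (EPS) thus overlapped with the K columns only and lay below every J column. The remaining neighbours in this order whose libraries overlapped were NHSM-v, at 1.41% to 1.45%, and TL-CDK8i, at 1.34% to 1.42%. The hnRNP genes made up most of this share, 1.59% in primed and 0.868% in TL-CDK8i cells.

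**Figure D2:**
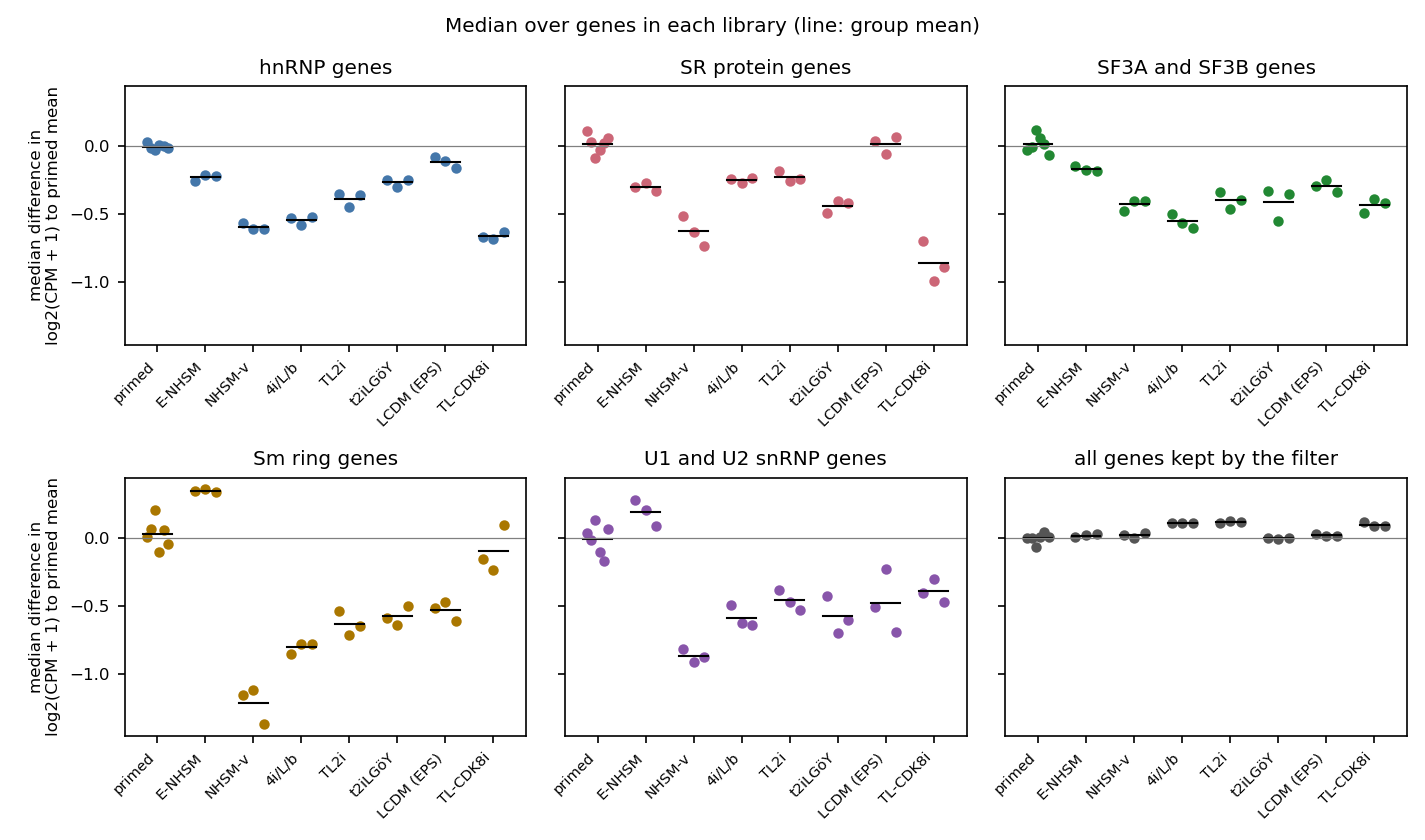
Median over the genes of each class, and over all genes kept by the filter, of the difference in log2(CPM + 1) from the primed mean, with 1 point for each library and a line at the group mean. The Sm ring genes lie above the primed libraries in E-NHSM (0.34 to 0.36) and farthest below them in NHSM-v (-1.37 to -1.12), whereas the SR protein genes lie farthest below in TL-CDK8i (-0.99 to -0.70) and among the primed libraries in LCDM (EPS).

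Among the hnRNP genes, 21 were tested, and the largest falls in the average of the 7 protocols were those of HNRNPF, HNRNPM, HNRNPAB, HNRNPD, HNRNPA2B1, and HNRNPU. HNRNPU, a nuclear scaffold protein that binds RNA and chromatin, ranged from 1961 to 2080.1 CPM around a median of 2014 CPM in primed cells. It reached 1011, 958, and 1026 CPM in TL-CDK8i and 1152, 1062, and 1093 CPM in 4i/L/b libraries. It lay at 1116, 1145, and 1165 CPM in NHSM-v, 1154, 1047, and 1078 CPM in TL2i, and 1265, 1297, and 1275 CPM in E-NHSM libraries. All 21 libraries of the 7 protocols were below the lowest primed library, and the levels came nearest to it in t2iLGöY (1420.4 to 1475 CPM) and LCDM (EPS) (1609 to 1648 CPM). The average had a log2 fold change of -0.71 (SE 0.03, adjusted p = 4.08e-19). All 7 single falls were called, from -0.28 in LCDM (EPS) to -1.05 in TL-CDK8i.

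HNRNPM, which binds GU-rich RNA and regulates exon inclusion, ranged from 803 to 879 CPM around a median of 833 CPM in primed cells and reached 374 to 431 CPM in TL2i, 403 to 417 CPM in TL-CDK8i, 488 to 509.7 CPM in E-NHSM, and 514 to 581 CPM in t2iLGöY libraries. The groups did not overlap with primed cells in any protocol, and the average had a log2 fold change of -0.82 (SE 0.04, adjusted p = 1.43e-17). HNRNPAB, which binds single-stranded nucleic acids, ranged from 728 to 778 CPM around a median of 759 CPM in primed cells, fell least in LCDM (EPS) (534, 574, and 558 CPM), and fell most in TL2i (390.0, 339, and 382 CPM). Its average change had a log2 fold change of -0.77 (SE 0.04, adjusted p = 2.92e-17). HNRNPA2B1, which binds mRNA and takes part in its transport, ranged from 2297 to 2688 CPM around a median of 2589.8 CPM in primed cells, where the K columns were lower than the J columns on average, and reached 1210.1, 1102, and 1084 CPM in TL-CDK8i and 1211, 1149, and 1167 CPM in NHSM-v libraries. Every protocol library was below the lowest primed library, and the average had a log2 fold change of -0.72 (SE 0.04, adjusted p = 9.68e-17).

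HNRNPD, or AUF1, which binds AU-rich mRNAs and affects their decay, and its paralog HNRNPDL differed between media. HNRNPD ranged from 997 to 1131 CPM around a median of 1036 CPM in primed cells. It was at 427, 379, and 407 CPM in TL-CDK8i (log2 fold change -1.42, SE 0.07, adjusted p = 2.64e-09) and 419, 419, and 416 CPM in NHSM-v libraries (log2 fold change -1.38). In LCDM (EPS) it was at 959, 979, and 929 CPM, below every primed library, with a log2 fold change of -0.10 that did not pass the test (adjusted p = 0.106). HNRNPDL ranged from 784 to 950.4 CPM around a median of 839.7 CPM in primed cells, was lower in TL-CDK8i at 343, 292, and 298 CPM (log2 fold change -1.49, SE 0.09, adjusted p = 2.03e-08), and was higher in LCDM (EPS) at 1169.8, 1177, and 1122 CPM (log2 fold change 0.48, adjusted p = 5.04e-05). Neither group overlapped with the primed libraries. The libraries of NHSM-v (488 to 507 CPM), 4i/L/b (563 to 597 CPM), and TL2i (664 to 759.7 CPM) were also below every primed library.

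HNRNPF, which binds G-rich tracts, was lower in 6 media and not in TL-CDK8i. It ranged from 550.1 to 641 CPM around a median of 585 CPM in primed cells and reached 283, 262, and 274 CPM in 4i/L/b (log2 fold change -1.15, SE 0.08, adjusted p = 2.56e-08). The libraries of NHSM-v (259.7 to 302 CPM), TL2i (256 to 321 CPM), t2iLGöY (269 to 298 CPM), and LCDM (EPS) (240.2 to 285 CPM) were all below the primed range, and those of E-NHSM were also below it at 372 to 421 CPM. In TL-CDK8i HNRNPF was at 486, 548, and 559.8 CPM, which overlapped with primed cells (log2 fold change -0.17, adjusted p = 0.0866). HNRNPH1, a relative that binds the same kind of sequence, fell most in TL-CDK8i. It ranged from 1061 to 1312 CPM around a median of 1227 CPM in primed cells, with the K columns below the J columns on average, and was at 549, 473, and 473 CPM in TL-CDK8i (log2 fold change -1.30, adjusted p = 1.26e-07), less than the 807 to 939.6 CPM of E-NHSM and the 1231 to 1296 CPM of LCDM (EPS).

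Of the other hnRNP genes, HNRNPA1, a splicing repressor, ranged from 502 to 568 CPM around a median of 532 CPM in primed cells and was lower in NHSM-v at 285, 325, and 311 CPM (log2 fold change -0.84, SE 0.08, adjusted p = 2.06e-07) and in TL-CDK8i at 325, 347, and 359.9 CPM (log2 fold change -0.66, SE 0.08, adjusted p = 9.24e-06). It was also lower in 4i/L/b (log2 fold change -0.29), and did not pass the test in E-NHSM (0.18), TL2i (-0.04), t2iLGöY (-0.14), or LCDM (EPS) (0.04). HNRNPLL, known for its control of alternative exons in lymphocytes, ranged from 132 to 148 CPM around a median of 141 CPM in primed cells and had its largest fall in E-NHSM at 77.3, 68.8, and 72.04 CPM (log2 fold change -0.95, SE 0.10, adjusted p = 1.41e-06). The TL2i libraries overlapped with those of E-NHSM, at 74.4, 75.1, and 69.7 CPM. HNRNPA0 was the hnRNP gene that rose in the average, from 153 to 189 CPM in primed cells to 240.3, 272, and 247 CPM in t2iLGöY (log2 fold change 0.63, SE 0.09, adjusted p = 2.69e-05) and 257, 259.9, and 260.0 CPM in LCDM (EPS) (log2 fold change 0.66, SE 0.08, adjusted p = 8.40e-06). Its rise in NHSM-v, to 209, 202, and 227 CPM (log2 fold change 0.30), had an adjusted p of 0.0508 without NHSM-v library 3, and in TL-CDK8i it fell to 133, 137, and 131 CPM (log2 fold change -0.36). HNRNPR also rose in t2iLGöY (log2 fold change 0.24) and LCDM (EPS) (0.57) and fell in TL-CDK8i (-0.44), with 503 to 603 CPM in primed and 793, 762, and 749.6 CPM in LCDM (EPS) libraries. HNRNPK, which binds C-rich sequences, was lower in all 7 media, with log2 fold changes from -0.14 in LCDM (EPS) to -0.75 in TL2i. HNRNPC, which binds uridine tracts, and HNRNPL, which binds CA repeats, were lower in the 6 media other than E-NHSM, with log2 fold changes of -1.08 and -0.59 in NHSM-v against 0.06 and -0.05 in E-NHSM. HNRNPUL2, a relative of HNRNPU, was called in t2iLGöY (0.24) and TL-CDK8i (-0.44) in opposite directions, and HNRNPH2 was called in TL-CDK8i alone (-0.30).

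Of the 21 hnRNP genes tested, those called lower numbered 19 in TL-CDK8i (against 23.8% of all genes tested), 17 in 4i/L/b (29%), 16 in NHSM-v (30.6%), and 14 in TL2i (25.2%). There were 11 in each of E-NHSM and t2iLGöY (against 15.1% and 27.2%), and 8 in LCDM (EPS) (28.9%). Those called higher were 3 in each of t2iLGöY and LCDM (EPS) (against 27.1% and 28.2% of all genes), 1 in NHSM-v (28%), and 0 in the other 4 media (11.1% to 26.6%).

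HNRNPCL1 had 0 counts in all 27 libraries and was not tested. HNRNPA1L2, an intronless copy of HNRNPA1, held 2 to 68 counts per library, or 0.282 to 4.47 CPM, and was called in none of the 11 comparisons. Several members have processed copies in primate genomes, and how the counting treated reads that match more than 1 gene was not stated, so levels of HNRNPA1, HNRNPA1L2, SRSF8, which is a copy of SRSF2, and the small SNRP genes could include or lack reads of near-identical copies.

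**Figure D3:**
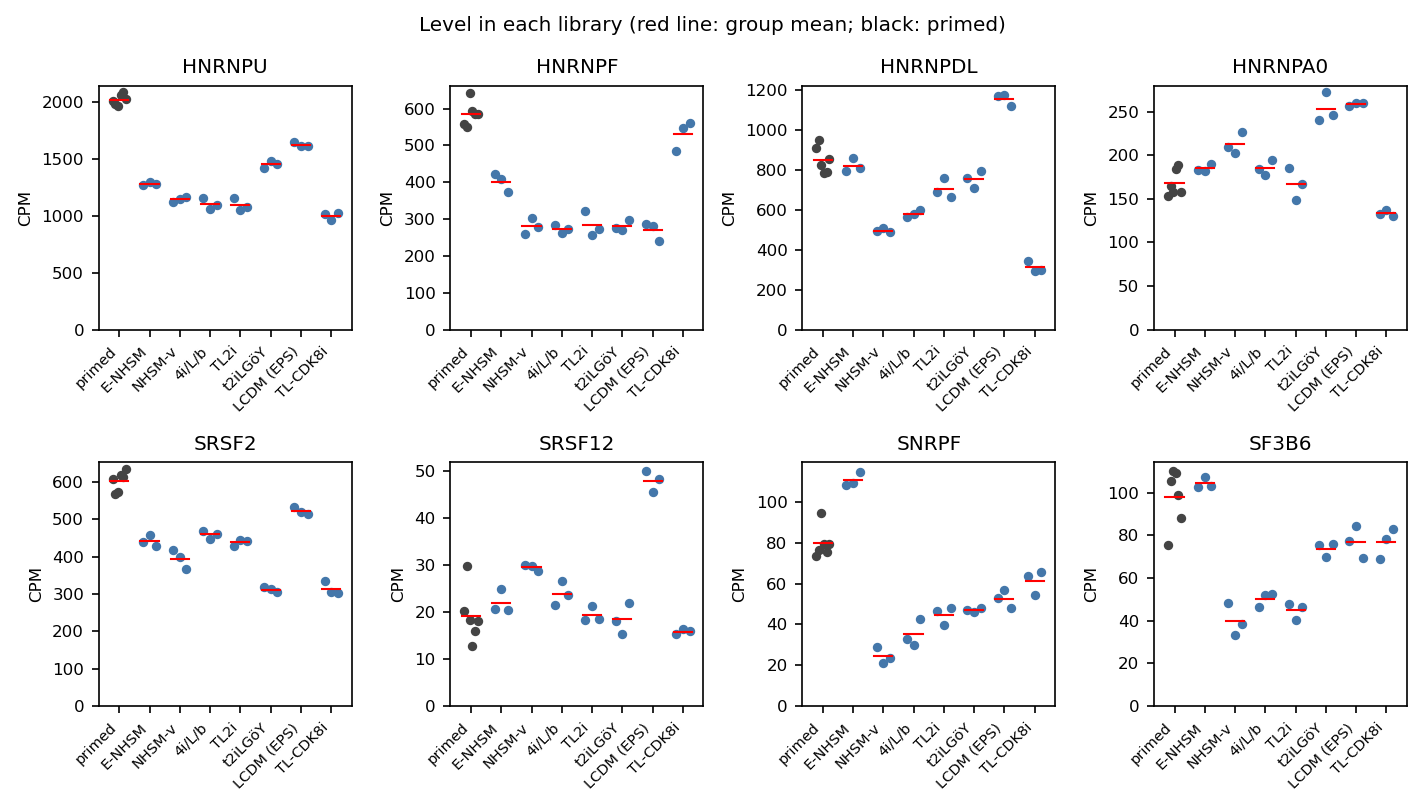
CPM of 8 members in each library of the 8 groups, with 1 point for each library and a red line at the group mean. HNRNPF is low in 6 protocols but not in TL-CDK8i, HNRNPDL is highest in LCDM (EPS) and lowest in TL-CDK8i, SRSF12 is highest in LCDM (EPS), and SNRPF is highest in E-NHSM and lowest in NHSM-v.

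The SR protein genes fell most in TL-CDK8i, where 10 of 12 were lower (against 23.8% of all genes tested), and in NHSM-v, where 10 were also lower (against 30.6%). Their median log2 fold changes were -0.92 and -0.67. Lower calls numbered 9 in t2iLGöY (median -0.40), 8 in 4i/L/b (-0.34), 6 in E-NHSM (-0.30), and 5 in TL2i (-0.23). The shares of all genes called lower were 27.2%, 29%, 15.1%, and 25.2% in the same order. LCDM (EPS) stood apart with 5 higher and 4 lower (median 0.02), where 28.2% of all genes were higher and 28.9% lower. Its lower calls, 33.3% of the class, were near that share. The other medium with a higher call was t2iLGöY, with SRSF8 (log2 fold change 0.49).

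SRSF1, the founding member of the family, ranged from 521 to 695 CPM around a median of 618 CPM in primed cells. It was at 401, 368, and 321 CPM in TL-CDK8i (log2 fold change -0.80, SE 0.10, adjusted p = 9.70e-06), 432, 502, and 437 CPM in E-NHSM (log2 fold change -0.44, SE 0.08, adjusted p = 6.28e-04), and 433, 466, and 447 CPM in t2iLGöY libraries (log2 fold change -0.43). In LCDM (EPS) it was at 645, 607, and 645 CPM, within the primed range (log2 fold change 0.07, adjusted p = 0.466). It was also lower in NHSM-v (log2 fold change -0.38). The small falls in 4i/L/b (-0.25, adjusted p = 0.0178) and TL2i (-0.21, adjusted p = 0.0499) overlapped with the primed libraries. Both calls were lost with DESeq2, with its size factors in edgeR, and with library totals alone. With upper-quartile factors only the call in TL2i was lost. Leaving out primed J2 or K3 or any single 4i/L/b library took the first to an adjusted p of 0.054 to 0.0896, and leaving out any of the 3 TL2i libraries or any primed library but J3 took the second to 0.0534 to 0.217.

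SRSF2, also called SC35, ranged from 566 to 635 CPM around a median of 610.0 CPM in primed cells. Its lowest libraries were those of t2iLGöY at 318, 312, and 305 CPM (log2 fold change -0.92, SE 0.07, adjusted p = 2.47e-08) and TL-CDK8i at 335, 304, and 302 CPM (log2 fold change -0.97), and no library of the 7 protocols reached the primed range. SRSF6, which promotes exon inclusion through exonic enhancers, ranged from 529 to 637 CPM around a median of 593 CPM in primed cells, was at 310.2, 272, and 263 CPM in TL-CDK8i (log2 fold change -1.11) and at 358, 371, and 339.9 CPM in NHSM-v (-0.78). In LCDM (EPS), at 656, 656, and 639 CPM, it was slightly higher (log2 fold change 0.17, adjusted p = 0.0414). SRSF5 ranged from 396 to 529.6 CPM around a median of 473 CPM in primed cells and was at 245, 179, and 179 CPM in TL-CDK8i (log2 fold change -1.27, SE 0.13, adjusted p = 1.66e-06) and 221, 210.1, and 201 CPM in NHSM-v, where the groups did not overlap. In LCDM (EPS) it was at 285, 309.6, and 288 CPM, its fall there being the largest of the SR genes. SRSF10, a regulator related to SRSF12, was lower in all 7 media, with log2 fold changes from -0.31 in LCDM (EPS) to -1.07 in NHSM-v.

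SRSF11, whose K columns were below its J columns on average, ranged from 499.6 to 694 CPM around a median of 590.2 CPM in primed cells and was at 368, 295, and 266 CPM in TL-CDK8i (log2 fold change -0.98), below every primed library. SRSF12 was the SR gene with the largest rise. It ranged from 12.8 to 29.8 CPM around a median of 18.2 CPM in primed cells and was at 50.03, 45.7, and 48.4 CPM in LCDM (EPS), with no overlap (log2 fold change 1.36, SE 0.22, adjusted p = 1.13e-04). In the other 6 media it did not pass the test, with levels between 15.4 and 30.1 CPM. Its rise in the average (log2 fold change 0.31, adjusted p = 0.0282) was 0.48 without primed J2 and lost its call without primed K1, K2, or K3 (adjusted p = 0.121, 0.0899, and 0.0589). SRSF3, SRSF4, and SRSF8 rose with SRSF6 and SRSF12 in LCDM (EPS), with log2 fold changes of 0.29, 0.37, and 0.62, whereas SRSF2, SRSF5, SRSF9, and SRSF10 fell, with -0.17, -0.65, -0.34, and -0.31.

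Of the 8 SF3A and SF3B genes, 7 were lower in each of 4i/L/b and TL2i (against 29% and 25.2% of all genes tested). In each of NHSM-v, t2iLGöY, and TL-CDK8i 6 were lower (against 30.6%, 27.2%, and 23.8%). There were 4 in LCDM (EPS) (against 28.9%) and 2 in E-NHSM (against 15.1%). SF3B1, whose protein clamps the branch point, ranged from 959 to 1017 CPM around a median of 986 CPM in primed cells and fell by less than 2-fold. Its libraries were below the primed range in every protocol, from 701, 689, and 654 CPM in TL-CDK8i (log2 fold change -0.57, SE 0.06, adjusted p = 3.18e-06) to 774, 891, and 885 CPM in E-NHSM (log2 fold change -0.22, SE 0.06, adjusted p = 0.00964). The call in E-NHSM was lost without E-NHSM library 1 (adjusted p = 0.126), and that in TL2i (log2 fold change -0.23) without TL2i library 1 or 3 (0.0529 and 0.0804). With library totals alone the calls in E-NHSM, TL2i, and LCDM (EPS) were lost (adjusted p = 0.103, 0.187, and 0.0632) and the log2 fold change in t2iLGöY was -0.14.

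SF3B6, the subunit that contacts the branch point adenosine, had the largest falls of the class. It ranged from 75.5 to 110.4 CPM around a median of 102 CPM in primed cells and was at 48.1, 33.5, and 38.6 CPM in NHSM-v (log2 fold change -1.34), 47.8, 40.4, and 46.4 CPM in TL2i (log2 fold change -1.12, SE 0.14, adjusted p = 1.45e-05), and 46.3, 52.3, and 52.4 CPM in 4i/L/b (-1.01). In E-NHSM it lay within the primed range at 103 to 107 CPM and did not pass the test. SF3B5, a small subunit of the same complex, was the member of this class that rose. It ranged from 8.31 to 33.9 CPM around a median of 26.99 CPM in primed cells, J3 being the lowest library, and was at 49.7, 44.7, and 58.04 CPM in NHSM-v (log2 fold change 0.97, SE 0.29, adjusted p = 0.00948). Its rise in t2iLGöY, at 27.9, 47.95, and 50.1 CPM, overlapped with primed cells (log2 fold change 0.78, SE 0.32, adjusted p = 0.0494) and was lost without primed J2, K2, or K3 or without t2iLGöY library 2 or 3 (adjusted p 0.0731 to 0.188). Its average rise of 0.51 was 0.34 without primed J3 and kept its call. The SF3A genes, whose products join U2 snRNP to SF3B, were all 3 lower in TL-CDK8i, TL2i, 4i/L/b, and NHSM-v. SF3A2 reached log2 fold changes of -0.91 in 4i/L/b and -0.97 in TL-CDK8i. SF3A3 had its largest fall in NHSM-v (-0.86). SF3B3 fell in 5 media, with its largest fall in t2iLGöY (log2 fold change -0.60), and not in NHSM-v (-0.13) or TL-CDK8i (0.09).

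The Sm ring genes encode the 7 proteins shared by the U1, U2, U4, and U5 snRNPs. They fell together in NHSM-v, where all 7 were lower (median log2 fold change -1.33), and 6 were lower in both TL2i (-0.61) and 4i/L/b (-0.95). In t2iLGöY and LCDM (EPS) 5 were lower (-0.52 and -0.54), and in TL-CDK8i 3 were lower (-0.06). E-NHSM went in the opposite direction, with 2 higher, 0 lower, and a median of 0.36. Over all genes tested, 30.6% were lower in NHSM-v, 25.2% in TL2i, 29% in 4i/L/b, 27.2% in t2iLGöY, 28.9% in LCDM (EPS), and 23.8% in TL-CDK8i. In E-NHSM 11.1% of all genes were higher and 15.1% lower.

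SNRPF ranged from 73.6 to 94.5 CPM around a median of 77.8 CPM in primed cells. It was at 28.9, 20.9, and 23.7 CPM in NHSM-v (log2 fold change -1.75, SE 0.15, adjusted p = 1.38e-07) and 32.6, 30.1, and 42.7 CPM in 4i/L/b libraries (log2 fold change -1.23, SE 0.14, adjusted p = 6.99e-06). In E-NHSM it was at 108, 109, and 115 CPM, above every primed library (log2 fold change 0.47, SE 0.11, adjusted p = 0.00383). SNRPG ranged from 41.8 to 59.1 CPM around a median of 49.9 CPM in primed cells and was at 20.2, 13.6, and 18.6 CPM in NHSM-v (log2 fold change -1.57, SE 0.20, adjusted p = 7.53e-06). In E-NHSM SNRPG was at 63.4, 63.96, and 66.3 CPM, also above every primed library, but its log2 fold change of 0.36 did not pass the test (adjusted p = 0.0833). SNRPE rose in E-NHSM to 102, 97.8, and 95.7 CPM from 67.4 to 81.2 CPM in primed cells (log2 fold change 0.38, SE 0.11, adjusted p = 0.0126), a call that was lost without E-NHSM library 1 (adjusted p = 0.0695), and fell in NHSM-v to 29.3, 34.2, and 26.2 CPM (log2 fold change -1.39).

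TL-CDK8i divided the ring genes. SNRPD1 fell from 134 to 165 CPM in primed cells to 70.3, 74.3, and 73.7 CPM (log2 fold change -1.12), SNRPE to 35.6, 42.5, and 45.4 CPM (-0.91), and SNRPF to 63.9, 54.4, and 65.8 CPM (-0.41). SNRPB, which encodes the SmB proteins, ranged from 189 to 260.3 CPM around a median of 222 CPM in primed cells and was at 208, 224, and 237 CPM in TL-CDK8i, with a log2 fold change of -0.03 that did not pass the test (adjusted p = 0.827). Likewise SNRPD2 (-0.02), SNRPD3 (0.11), and SNRPG (-0.06) were not called there. SNRPB was lowest in t2iLGöY at 121, 115, and 128 CPM (log2 fold change -0.85, SE 0.12, adjusted p = 1.76e-05), and its fall in TL2i (log2 fold change -0.44) lost its call without TL2i library 2 (adjusted p = 0.0596). SNRPD2 had its largest fall in LCDM (EPS), from 30.6 to 53.1 CPM in primed cells to 23.9, 23.96, and 24.5 CPM (log2 fold change -0.78, SE 0.18, adjusted p = 0.0023). The 4 U1 and U2 snRNP genes were all lower in 4i/L/b (against 29% of all genes tested), and 3 were lower in each of NHSM-v and TL2i (against 30.6% and 25.2%). In each of t2iLGöY, LCDM (EPS), and TL-CDK8i 2 were lower (against 27.2%, 28.9%, and 23.8%), and in E-NHSM 0 were (against 15.1%). SNRPA, the U1-A protein, fell from 134 to 209 CPM in primed cells to 84.9, 85.5, and 98.9 CPM in NHSM-v (log2 fold change -0.92) and 91.8, 79.6, and 93.7 CPM in t2iLGöY (-0.86), and SNRPC, the U1-C protein, was called lower in 4i/L/b (-0.65) and TL2i (-0.46). SNRPA1, a U2 snRNP protein, ranged from 89.6 to 111 CPM around a median of 98.8 CPM in primed cells and was at 48.6, 52.8, and 46.3 CPM in NHSM-v (log2 fold change -1.08), and SNRPB2, its partner in the U2 snRNP, was at 61.3, 46.3, and 48.4 CPM there (-1.02).

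TL-CDK8i and TL2i share tamoxifen-activated STAT3 and LIF and differ in the kinase inhibitors, so they were compared directly. In TL-CDK8i, 24 members were lower and 10 higher than in TL2i, where 33.3% of all genes tested were lower and 31.5% higher. The median over the members was -0.21, against -0.04 over all genes. SR proteins accounted for 9 of the lower calls (median -0.54), and hnRNPs for 11, whereas 4 Sm ring genes were higher (median 0.42). HNRNPDL was at 343, 292, and 298 CPM in TL-CDK8i and 688, 759.7, and 664 CPM in TL2i libraries (log2 fold change -1.20, SE 0.10, adjusted p = 1.95e-07). HNRNPH1 was at 549, 473, and 473 CPM against 936, 1133, and 1037 CPM (log2 fold change -1.07, SE 0.10, adjusted p = 8.71e-07). Both genes separated the groups fully. In the other direction, HNRNPF was at 486, 548, and 559.8 CPM against 321, 256, and 274 CPM (log2 fold change 0.88, SE 0.10, adjusted p = 5.37e-06). SF3B6 was also higher, at 68.96, 78.3, and 82.97 CPM against 47.8, 40.4, and 46.4 CPM (log2 fold change 0.75, SE 0.11, adjusted p = 3.49e-05). SRSF1 (log2 fold change -0.57), SF3B1 (-0.33), and HNRNPA1 (-0.60) were lower in TL-CDK8i, and SNRPB was higher (0.42). Pluripotency markers were higher in TL-CDK8i than in TL2i (5 of 6 called) and neural markers mostly lower (4 of 6). Of 6 mesenchymal markers 4 were higher and 1 lower, and 3 of 4 trophoblast and 3 of 4 endoderm markers were lower and 1 of each was higher. Their part in these differences was not tested.

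A pair of further comparisons was picked with each medium's change from primed cells already in view, to test differences between media directly. By class median, E-NHSM and NHSM-v differed most in the Sm ring. In E-NHSM, 35 members were higher and 6 lower than in NHSM-v (34.8% and 33.4% of all genes), with a median of 0.56. All 7 Sm ring genes were higher (median 1.33), as were all 4 U1 and U2 snRNP genes (median 1.04). SNRPF had the largest difference (log2 fold change 2.21, SE 0.13, adjusted p = 1.77e-09), followed by SNRPG (log2 fold change 1.92, SE 0.17, adjusted p = 1.04e-07). HNRNPLL was lower in E-NHSM (log2 fold change -0.58, SE 0.10, adjusted p = 9.45e-05), as was SF3B5 (log2 fold change -0.58, SE 0.16, adjusted p = 0.00541). All 6 pluripotency markers were higher and all 6 neural and all 6 mesenchymal markers lower in E-NHSM, and their part in the differences was not tested.

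By class median, LCDM (EPS) and TL-CDK8i differed most in the SR proteins and hnRNPs. In LCDM (EPS), 33 members were higher and 6 lower than in TL-CDK8i (34.7% and 35.4% of all genes), with a median of 0.52. Of the 12 SR protein genes 11 were higher and 0 lower (median 0.87), and of the 21 hnRNP genes 18 were higher and 1 lower (median 0.59), whereas 4 of 7 Sm ring genes were lower (median -0.53). HNRNPDL had the largest difference (log2 fold change 1.92, SE 0.08, adjusted p = 1.45e-10), followed by SRSF12 (log2 fold change 1.62, SE 0.13, adjusted p = 7.46e-08). HNRNPF (log2 fold change -0.96, SE 0.09, adjusted p = 4.85e-07) and SNRPD2 (log2 fold change -0.80, SE 0.13, adjusted p = 1.15e-04) were lower in LCDM (EPS). Here 5 of 6 pluripotency markers were lower, all 6 neural markers were higher, and all 6 mesenchymal markers were lower in LCDM (EPS), and their part was not tested.

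**Figure D4:**
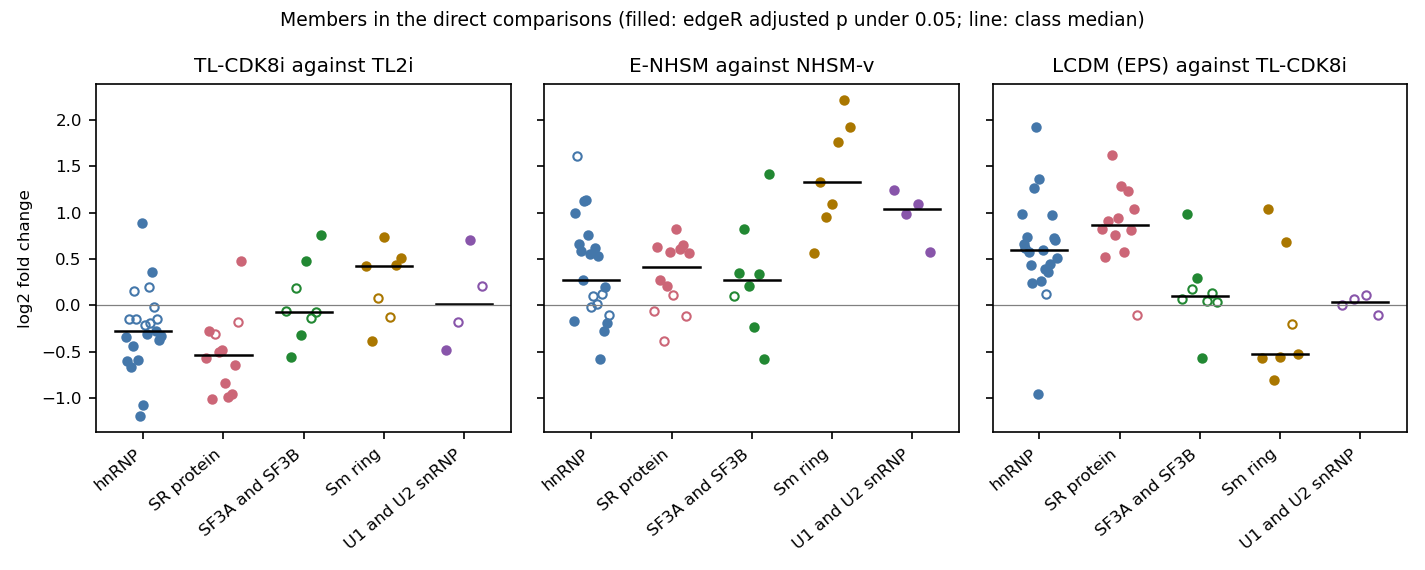
Log2 fold change of the 52 tested members in the 3 comparisons between media, by class, with 1 point for each gene (filled where the edgeR adjusted p was under 0.05) and a line at the class median. SR protein genes lie mostly below 0 in TL-CDK8i against TL2i (median -0.54) and mostly above 0 in LCDM (EPS) against TL-CDK8i (0.87), and Sm ring genes are all above 0 in E-NHSM against NHSM-v.

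Other genes of the splicing pathway were read from the same fits, by lists given in the processing section, for the average of the 7 protocols, where 32.9% of all genes tested were lower and 30% higher. Of 30 core spliceosome proteins, 20 were lower and 1 higher (median -0.23). PHF5A, a subunit of SF3B, was the lowest (log2 fold change -0.73, SE 0.07, adjusted p = 3.81e-10), followed by BCAS2 of the PRP19 complex (-0.63), and the helicase DHX38 was the one that rose (0.24). Of 20 genes for snRNP assembly, 14 were lower and 0 higher (median -0.57), led by LSM8, part of the ring on U6 snRNA (log2 fold change -1.03, SE 0.12, adjusted p = 1.77e-08), and SMN1, which loads Sm proteins onto snRNAs (log2 fold change -0.98, SE 0.08, adjusted p = 1.77e-11). LSM8 was at 35.5 to 55.1 CPM in primed and 12.9 to 17.7 CPM in 4i/L/b cells. SMN1 reads may be shared with near-identical copies. In NHSM-v 14 of these 20 genes were lower (median -1.05), against 30.6% of all genes there. In E-NHSM 4 were higher and 1 lower (median 0.16), against 11.1% and 15.1% of all genes.

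Of 12 kinases and other regulators of SR proteins, 6 were lower and 1 higher (median -0.17). TNPO3, the import receptor of SR proteins, ranged from 277 to 348 CPM around a median of 296 CPM in primed cells and had a log2 fold change of -0.89 (SE 0.05, adjusted p = 3.16e-16) in the average, with no library of the 7 protocols in the primed range. SRRM1, a splicing coactivator that works with SR proteins, had a log2 fold change of -0.82 (SE 0.04, adjusted p = 3.00e-16) and was likewise below primed cells in every library. CLK4, a kinase of SR proteins, rose (log2 fold change 0.32, adjusted p = 0.017) and lost its call without primed J3 (adjusted p = 0.073). In TL-CDK8i 9 of the 12 were lower and 0 higher (median -0.69), against 23.8% and 22.3% of all genes there. Of 8 proteins of the minor spliceosome, which removes the rare U12-type introns, 4 were lower and 2 higher, with RNPC3 (0.79) and PDCD7 (0.36) up and SNRNP48 (-0.75) and ZRSR2 (-0.47) among those down. Of 10 genes of nonsense-mediated decay, which removes many transcripts with premature stop codons, 6 were lower and 2 higher. UPF3A (-0.46) and UPF3B (-0.43) had the largest falls, and the endonuclease SMG6 (0.32) and the kinase SMG1 (0.21) rose.

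Regulators of splice site choice outside the member families changed in both directions, with 17 of 35 higher and 15 lower in the average (median 0.15). ESRP1 and ESRP2, which drive epithelial exon choices, fell. ESRP1 ranged from 122 to 176 CPM around a median of 152 CPM in primed cells and was higher in E-NHSM at 200.4, 213, and 203 CPM (1.38-fold in mean CPM). It was at 17.5, 9.43, and 17.5 CPM in TL-CDK8i and 9.28, 14.6, and 10.8 CPM in TL2i libraries, 10.03-fold and 12.9-fold below the primed mean. In the 3 NHSM-v libraries it had 0 to 1 counts, at least 479.7-fold lower than in primed cells when 3 counts per library are taken as the floor. ESRP2 ranged from 73.1 to 86.4 CPM around a median of 79.04 CPM in primed cells and was at 42.9, 42.6, and 37.96 CPM in E-NHSM, 23.03, 16.01, and 25.2 CPM in TL-CDK8i, and 5.27, 9.95, and 6.63 CPM in TL2i libraries. It had 0 to 1 counts in NHSM-v, at least 254-fold lower than in primed cells by the same floor.

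CELF3 and ELAVL4, which are known from neurons, rose. CELF3 had 0 to 9 counts in a primed library and 5 to 11 in E-NHSM, against 30.7, 33.01, and 22.8 CPM in NHSM-v, 108, 98.2, and 96.7 CPM in t2iLGöY, and 195, 218, and 233 CPM in LCDM (EPS) libraries. ELAVL4 had 0 to 7 counts in a primed library, against 81.6, 112, and 90.1 CPM in t2iLGöY and 164, 134, and 169 CPM in LCDM (EPS) libraries. In TL-CDK8i CELF3 reached 4.72, 1.64, and 1.14 CPM and ELAVL4 0.461, 0.987, and 1.14 CPM. The fitted averages of both (log2 fold changes 5.19 and 4.93) depend on the prior count where primed levels are near 0. The following were singled out after their values were seen. PTBP1, a repressor of neuronal exons, ranged from 822 to 962 CPM around a median of 907 CPM in primed cells and was lower in every protocol, from 754 to 764 CPM in NHSM-v to 482 to 499.5 CPM in TL-CDK8i. Its neuronal paralog PTBP2 ranged from 242 to 289 CPM around a median of 271 CPM in primed cells, was at 78.6 to 82.2 CPM in NHSM-v and 105 to 107 CPM in TL-CDK8i, and in LCDM (EPS), at 301, 282, and 276 CPM, had a log2 fold change of 0.13 (adjusted p = 0.181). SRRM4, which promotes neuronal microexons, was at 2.15 to 6.07 CPM in primed and 142 to 165 CPM in LCDM (EPS) cells, 40.4-fold higher by mean CPM. CELF3, ELAVL4, and SRRM4 were highest in LCDM (EPS) and next highest in t2iLGöY, as were the summed neural markers given above, whose part was not tested. NOVA2 shared this order, at 14.3-fold and 8.45-fold the primed mean, but not every gene of the list did. RBFOX1 was highest in t2iLGöY at 26.6, 36.0, and 25.9 CPM, against 9.78, 11.8, and 9.03 CPM in LCDM (EPS) libraries. RBFOX3 was at 5.58 to 12.9 CPM in primed and 12.3 to 15.1 CPM in LCDM (EPS) libraries. In NHSM-v it was lower, at 1.84, 0.946, and 2.24 CPM.

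**Figure D5:**
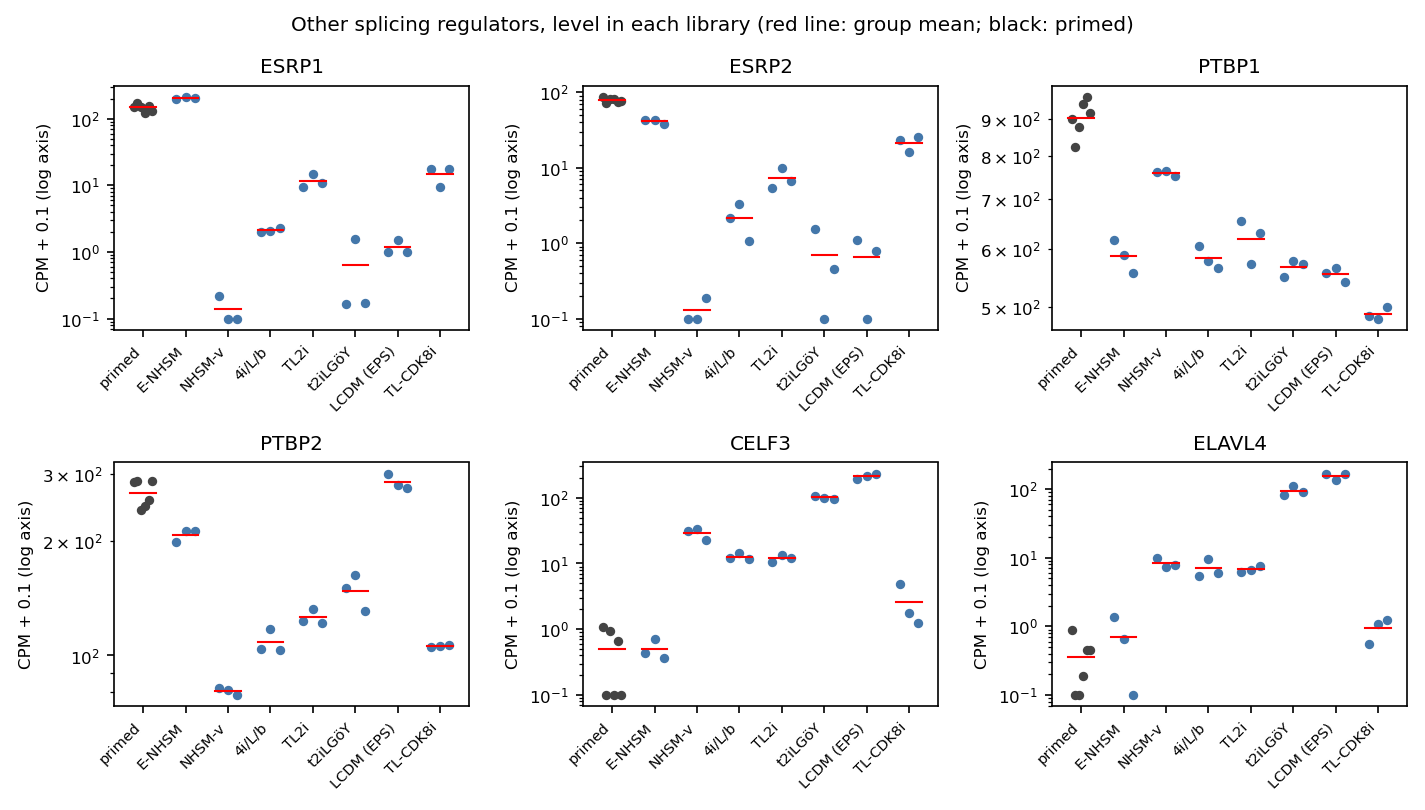
CPM + 0.1 on a log axis of 6 splicing regulators in each library, with 1 point for each library and a red line at the group mean. ESRP1 is highest in E-NHSM and ESRP2 in primed cells, and both are lowest in NHSM-v, whereas CELF3 and ELAVL4 are lowest in primed and E-NHSM cells and highest in LCDM (EPS).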

How the data were processed

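Bulk RNA-seq was measured in 27 libraries of rhesus LyonES-tGFP-(S3) cells, 6 primed and 3 of each of 7 protocols. Libraries were made with a directional mRNA kit and sequenced as single reads. The authors deposited raw counts of reads per gene symbol, and per the labels the processing tools were bcl2fastq, cutadapt, HISAT2, and HTSeq. Versions, genome build, and annotation were not given in the sources used here. The deposited counts held 17967 symbols, 0 of them duplicated, and all per-sample columns were used (0 left out). Primed columns carried letters that match no single primed label and were assigned to the group only.

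Each protocol was compared with primed cells with edgeR 4.0.16 in R 4.3.3 (TMM factors, filterByExpr, quasi-likelihood F-test, Benjamini-Hochberg adjustment over all genes tested, threshold 0.05), on the libraries of the groups compared. The average of the 7 protocols was a contrast of a fit on all 27 libraries. TL-CDK8i against TL2i was fitted on its own 6 libraries, as were E-NHSM against NHSM-v and LCDM (EPS) against TL-CDK8i, which were added after seeing the data. CPM are counts divided by the library total times its TMM factor over all 27 libraries, whereas shares of a library are of its raw total, and each fit had TMM factors of its own libraries. The medians plotted by library used a pseudocount of 1. Library totals of 7111886 to 20760914 counts set the precision, and 3 counts were taken as the floor, which covers counting error only.

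The members and the lists of other splicing genes were chosen with earlier results of these data known. The lists held 30 core spliceosome proteins, 36 other regulators of splice site choice (35 in the table), 12 regulators of SR proteins, 22 snRNP assembly genes (20 in the table), 8 minor spliceosome proteins, and 10 genes of nonsense-mediated decay. Genes were named by a rule: the 6 called members with the largest rise and the 6 with the largest fall in the average, the 2 of each in each other comparison, SRSF1, SF3B1, HNRNPA1, and SNRPB always, members that were hardly counted, and the 2 genes of each other list with the largest rise and the 2 with the largest fall in the average. Other members given with values were chosen after their values were seen.

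Alternatives were DESeq2 1.42.0, other scaling factors, other filters, a minimum log2 fold change of 1, a replicate block, and leaving out each library in turn. The edgeR and DESeq2 steps were tested on simulated counts. No sequence or coordinate is given, since a genome was not used here, and levels were not compared between genes.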

Additional observations from a re-analysis of the deposited data

Results flagged for a closer look

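Among the primed libraries, single values stood far from the others by Dixon's criterion for 5 of the 52 members tested in this group of 6, and chance gives about 1 in 20 groups. HNRNPC was 736.1 CPM in primed J3, against 927.3 CPM in the nearest library. SNRPF was 94.46 CPM in J3 (nearest 79.58 CPM), and SRSF7 was 272.1 CPM in J3 (nearest 308.6 CPM), so 3 of the 5 values belong to the same library. Primed J3 had the lowest total of all libraries, 7111886 counts, and the part of depth in these values was not tested. HNRNPR was 602.7 CPM in K1 (nearest 522.3 CPM), and SNRPB2 was 128.1 CPM in K3 (nearest 103 CPM).

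A total of 9 differences between media joined effects against primed cells of opposite sign, with the difference itself called by edgeR. Between E-NHSM and NHSM-v, SNRPE differed by 1.76 on the log2 scale, with 0.38 in E-NHSM and -1.39 in NHSM-v. SNRPF differed by 2.211 between the same media, with 0.47 and -1.75. Between LCDM (EPS) and TL-CDK8i, HNRNPDL differed by 1.919, with 0.48 in LCDM (EPS) and -1.49 in TL-CDK8i, and was the widest of the 7 genes found for this pair. HNRNPA0 differed by 0.979 (0.66 and -0.36) and HNRNPR by 0.9727 (0.57 and -0.44). The SR genes SRSF3, SRSF4, SRSF6, and SRSF8 differed by 0.9439, 1.284, 1.234, and 1.036, each higher than primed cells in LCDM (EPS) and lower in TL-CDK8i. Both pairs of media were picked with each medium's change from primed cells in view. The rule took genes already called against primed cells in opposite directions, so the call of the difference is not separate support. TL-CDK8i against TL2i was searched by the same rule and gave no such gene.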

How the results depend on the processing

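The total of members called, higher and lower together, stayed within 1.5 times its value in every comparison with DESeq2 and with other scaling factors. The same held with no filter on low counts, with at least 10 counts in every library, and with any library left out. The split moved more in E-NHSM, where 2 were higher and 19 lower with TMM factors. There, 6 were higher and 16 lower with upper-quartile factors, and 7 were higher and 15 lower with library totals alone. With a minimum log2 fold change of 1 the members called numbered 0 in E-NHSM, 14 in NHSM-v, 4 in 4i/L/b, 4 in TL2i, 1 in t2iLGöY, 2 in LCDM (EPS), 9 in TL-CDK8i, and 0 in the average, 3 in TL-CDK8i against TL2i, 10 in E-NHSM against NHSM-v, and 8 in LCDM (EPS) against TL-CDK8i. Over all genes tested this minimum left 3493 of 14752 in the average and 3848 of 13729 in TL-CDK8i against TL2i. It left 5537 of 13392 in E-NHSM against NHSM-v and 5280 of 13733 in LCDM (EPS) against TL-CDK8i. The numbers for the single media were given above. For the other lists this minimum left 14 regulators of splice site choice, 1 snRNP assembly gene, and 0 in each of the other 4 lists. With at least 10 counts in every library, 22 regulators of splice site choice were called and the split turned to 10 higher and 12 lower, since genes near 0 in some groups were left out.

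The median log2 fold change of the members stayed negative against primed cells with DESeq2, other scaling factors, other filters, and any library left out. It was not computed against the J or the K primed columns alone. With library totals alone it was -0.072 in E-NHSM, -0.53 in 4i/L/b, -0.26 in TL2i, -0.24 in t2iLGöY, -0.0536 in LCDM (EPS), -0.63 in TL-CDK8i, -0.35 in the average, -0.32 in TL-CDK8i against TL2i, 0.69 in E-NHSM against NHSM-v, and 0.66 in LCDM (EPS) against TL-CDK8i. With upper-quartile factors it was -0.086 in E-NHSM, -0.55 in 4i/L/b, -0.34 in TL2i, -0.25 in TL-CDK8i against TL2i, and 0.65 in E-NHSM against NHSM-v. DESeq2 and its size factors in edgeR (RLE) both gave -0.63 in NHSM-v, -0.52 in 4i/L/b, -0.14 in LCDM (EPS), -0.59 in TL-CDK8i, and 0.48 in LCDM (EPS) against TL-CDK8i, and RLE factors gave -0.39 in the average. With no filter it was -0.63 in NHSM-v and -0.54 in 4i/L/b, and with at least 10 counts in every library it was -0.63 in NHSM-v, -0.54 in 4i/L/b, -0.13 in LCDM (EPS), and -0.61 in TL-CDK8i. Leaving out 1 library in turn gave -0.17 to -0.13 in E-NHSM, -0.71 to -0.63 in NHSM-v, -0.60 to -0.53 in 4i/L/b, -0.41 to -0.34 in TL2i, -0.43 to -0.36 in t2iLGöY, -0.19 to -0.13 in LCDM (EPS), -0.66 to -0.60 in TL-CDK8i, -0.43 to -0.39 in the average, -0.24 to -0.15 in TL-CDK8i against TL2i, 0.52 to 0.59 in E-NHSM against NHSM-v, and 0.46 to 0.51 in LCDM (EPS) against TL-CDK8i.

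Protocol libraries did not deviate together with the primed columns of the same number, in either letter (r -0.05 to 0.05 over 42 pairs, 0 above 0.1), so the numbers were not taken as pairing. With the replicate block the members called numbered 22 in E-NHSM, 44 in NHSM-v, 42 in 4i/L/b, 34 in TL2i, 36 in t2iLGöY, 28 in LCDM (EPS), 40 in TL-CDK8i, and 47 in the average, 34 in TL-CDK8i against TL2i, 40 in E-NHSM against NHSM-v, and 39 in LCDM (EPS) against TL-CDK8i. The 92 values of named genes were read again in 1834 pairs of a value and a setting. Other filters and fits against the J or the K primed columns alone were not among these settings. None of the values changed sign, and 11 lost their call in at least 1 setting, 41 times in all. The block took the calls of SRSF1 in TL2i and SF3B5 in t2iLGöY to adjusted p = 0.0685 and 0.0597.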
